A study of Homo sapiens with 12 samples.

Results

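The exocyst subunit genes EXOC1 to EXOC8 were followed through exon splicing data of PC3E and GS689.Li, written GS689 below. The 8 genes were chosen by name, and exon events were assigned to them by strand, exon length and both intron lengths in the GENCODE annotation. Of 114816 events in the RNA-seq table, 93 belonged to 7 of the genes. EXOC8 had 0 events, and its 1 annotated transcript has 1 exon, so no exon of it can be skipped. Of 2023 events in the RASL-seq table, 1 belonged to an exocyst gene, EXOC1. All RASL-seq events lie on the plus strand, whereas EXOC2, EXOC5, EXOC7 and EXOC8 lie on the minus strand.

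Both lines are wild type by their labels and descend from PC3, a human prostate cancer line; PC3E has an epithelial and GS689 a mesenchymal phenotype. They were grown in DMEM/F12 with serum, non-essential amino acids and G418, plated in dishes and harvested the next day, with no other treatment. Each is a single derived line, so any difference is one between these lines. Each assay had 3 libraries per line, numbered in the labels with no word on whether each was a culture of its own. All p-values therefore reflect only how far these libraries scatter, and that scatter may be technical. RASL-seq ligates pairs of probes across chosen splice junctions and counts the products. Its columns name the line, and tests between the lines come from it alone. The RNA-seq header gives 2 numbered sets of 3 libraries and names no line, so RNA-seq values are listed by set and library, with no test and no assignment of a set to a line.

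RASL-seq totals ran from 615758 to 954120 counts per library and RNA-seq table totals from 93842790 to 120853566, where a read can count in several events. In RASL-seq, PC3E replicate 2 differed from replicates 1 and 3 in its inclusion shares (mean chi-square per event 6.33 and 4.41, against 2.26 between those and 1.77 to 2.28 within GS689). Library 2 of RNA-seq set 1 correlated less with the other libraries of its set (r of log2 gene totals 0.973 and 0.983) than those did with each other (0.994). In RASL-seq, 4 of 4 tested epithelial markers had lower totals in GS689 and 1 of 1 mesenchymal marker, VIM, had a higher one. Of these, LSR met the count filter through PC3E alone, with 99.2, 94.8 and 85.2 counts per 1000000 of the library there. In GS689 it had 0, 0 and 3.24, so LSR could enter the test only by being higher in PC3E. In RNA-seq, 11 of 11 epithelial markers were higher in set 1 and 4 of 5 mesenchymal markers higher in set 2 without overlap. The prostate luminal markers KLK3 and KLK2 had 0 events in RASL-seq, and neither reached 20 counts per library in RNA-seq.

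The exocyst is a complex of 8 subunits that tethers secretory vesicles to the plasma membrane before SNARE proteins fuse them. EXOC1 and EXOC7 bind phosphoinositides of the plasma membrane, EXOC2 and EXOC8 bind the GTPase Ral, EXOC6 binds the recycling endosome GTPase Rab11, and EXOC3, EXOC4 and EXOC5 belong to the core through which the subunits assemble. In epithelial cells the complex delivers basolateral membrane proteins near cell junctions. EXOC7, also called Exo70, is in addition known to bind the Arp2/3 complex, and its splice forms are known to differ between epithelial and mesenchymal cells through the splicing regulator ESRP1.

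The exons that carried the variation are shown first, because the choice between them in EXOC7 was the largest difference among exocyst exons. EXOC7 (ENSG00000182473.21, chromosome 17, minus strand) has a pair of coding exons of 93 nt and 69 nt between a 168 nt exon (76 nt in some annotated transcripts) and a 146 nt exon. The 69 nt exon can begin 84 nt earlier, which makes an exon of 153 nt. EXOC1 (ENSG00000090989.17, chromosome 4, plus strand) has a coding exon of 45 nt. In the 2 lines with neighbouring bases for EXOC7 and in the EXOC1 line, capitals mark the variable exon, and the lower-case letters are the 15 bases of spliced transcript on either side. In the line of the 153 nt form, lower case marks the 84 nt extension and capitals the part shared with the 69 nt exon.
EXOC7 93 nt exon, chr17:74087224-74087316: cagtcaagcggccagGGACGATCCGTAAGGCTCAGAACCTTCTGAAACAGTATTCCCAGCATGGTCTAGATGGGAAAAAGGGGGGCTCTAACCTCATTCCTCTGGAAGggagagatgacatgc
EXOC7 69 nt exon, chr17:74086410-74086478: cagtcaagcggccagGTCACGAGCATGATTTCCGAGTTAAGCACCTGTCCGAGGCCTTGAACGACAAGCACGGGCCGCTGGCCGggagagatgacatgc
EXOC7 153 nt exon, chr17:74086410-74086562: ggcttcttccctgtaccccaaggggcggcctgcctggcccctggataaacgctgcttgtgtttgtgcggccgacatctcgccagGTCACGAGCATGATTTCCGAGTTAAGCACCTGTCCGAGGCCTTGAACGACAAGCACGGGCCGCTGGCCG
EXOC1 45 nt exon, chr4:56755054-56755098: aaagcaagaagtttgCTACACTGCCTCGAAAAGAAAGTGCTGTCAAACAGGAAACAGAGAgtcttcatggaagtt
Sequences are those of the GENCODE 29 transcripts, 5′ to 3′ on the coding strand, and positions are those of the deposited tables on hg19. The 93 nt and the 69 nt exon join the same 15 bases on both sides. Their GC content was 50.5% and 60.9%, and that of the EXOC1 exon was 44.4%. Among annotated coding transcripts that span the EXOC7 pair, 4 hold the 93 nt exon alone, 1 the 69 nt exon alone, 2 both, 1 the 93 nt and 153 nt exons and 1 neither. For EXOC1, 2 annotated coding transcripts hold the 45 nt exon and 1 lacks it.

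In all 6 RNA-seq libraries most EXOC7 junction reads of this region skipped both exons, and the exon used when only 1 was included differed between the sets. The table counts 3 junctions here directly, as the skipping counts of 3 events, and each stands for 1 path: the 168 nt exon joined to the 146 nt exon (neither exon), the 93 nt exon joined to the 146 nt exon (93 nt without 69 nt), and the 168 nt exon joined to the 69 nt exon (69 nt without 93 nt). The junction that skips both had 748, 713 and 919 reads in libraries 1 to 3 of set 1 and 826, 915 and 715 in set 2. The junction of the 93 nt exon alone had 68, 27 and 28 reads in set 1 and 107, 129 and 128 in set 2, so each library of set 2 was above each library of set 1. The junction of the 69 nt exon alone had 102, 28 and 77 reads in set 1 and 4, 12 and 18 in set 2, and here each library of set 1 was above each of set 2.

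As shares of the 3 junctions, skipping of both made up 81.5%, 92.8% and 89.7% in set 1 and 88.2%, 86.6% and 83.0% in set 2, and these ranges overlap. The 93 nt junction took 7.41%, 3.52% and 2.73% in set 1 and 11.4%, 12.2% and 14.9% in set 2. The 69 nt junction took 11.1%, 3.65% and 7.52% in set 1 and 0.427%, 1.14% and 2.09% in set 2. Of the reads on the 2 single-exon junctions, the 93 nt exon held 40%, 49.1% and 26.7% in set 1, with 95% exact (Clopper-Pearson) intervals of 32.6% to 47.8%, 35.4% to 62.9% and 18.5% to 36.2%. In set 2 it held 96.4%, 91.5% and 87.7%, with intervals of 91.0% to 99.0%, 85.6% to 95.5% and 81.2% to 92.5%. No interval of a set 1 library reached one of a set 2 library. Intervals cover counting error only, since reads carry no molecular identifiers. The marker lists also differed between the sets, as given above, and ESRP1 stood at 282, 371 and 339 CPM in set 1 and at 0.149, 0.947 and 0.544 CPM in set 2. Their part in the EXOC7 difference was not tested.

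**Figure D1:**
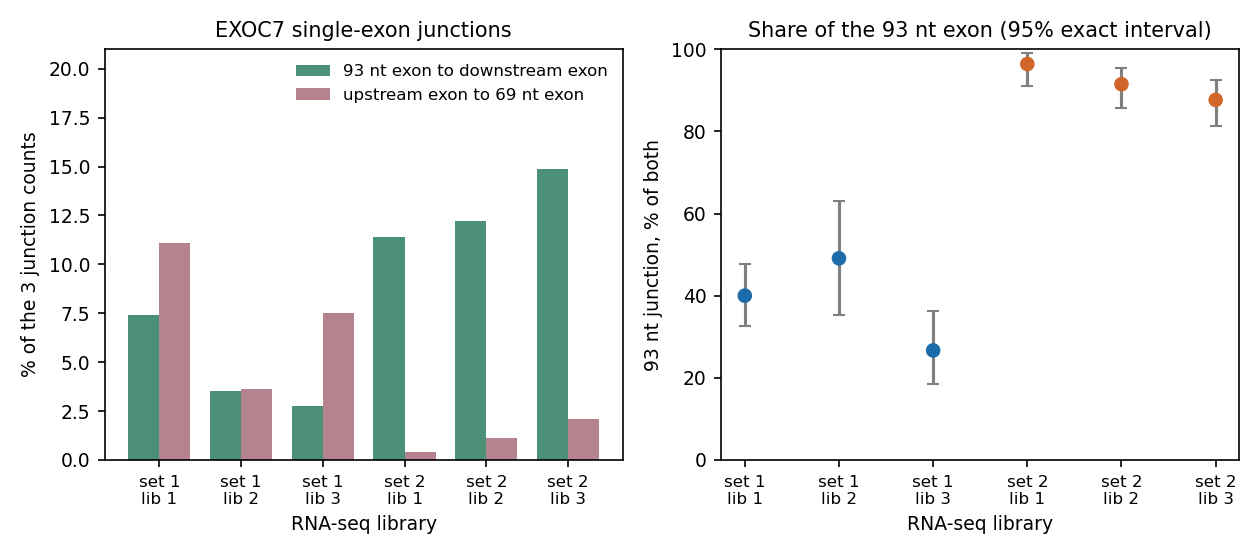
EXOC7 junction counts in the 6 RNA-seq libraries. Left, bars give the 93 nt junction and the 69 nt junction as a percentage of the 3 junctions counted; right, points give the share of the 93 nt junction among both single-exon junctions, with exact 95% intervals. The share lies between 26.7% and 49.1% in set 1 and between 87.7% and 96.4% in set 2.

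Transcripts with both exons can be estimated by subtraction, since events of one exon share a junction; a read that crosses both ends of a short exon is counted once, so these values are approximate. The junction from the 93 nt to the 69 nt exon came to 52, 4 and 49 reads in set 1 and 63, 65 and 49 in set 2, with library 2 of set 1 standing apart. The junction from the 93 nt exon to the 153 nt form came to 14, 5 and 7 reads in set 1 and 2, 1 and 2 in set 2. The long form was thus the rarer partner in 5 of the 6 libraries, the exception being library 2 of set 1. Its computed inclusion rests mainly on the junction to the 146 nt exon, which it shares with the 69 nt exon.

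The length-corrected inclusion levels of the 5 EXOC7 events take in junctions that the events share, so they are not shares of transcripts. Measured against direct joining of the 168 nt and 146 nt exons, the 93 nt exon stood at 8.92%, 3.13% and 6.74% in set 1 and at 15.3%, 15.1% and 17.0% in set 2, on a mean of 1004 counts per library. Measured against joining of the 168 nt exon to the 69 nt exon, it stood at 39.6%, 29.1% and 50.6% in set 1 and at 96.9%, 91.7% and 85.4% in set 2, on 206 counts. These ranges lie 34.8 percentage points apart, the widest gap of any exocyst event.
The 69 nt exon after the 93 nt exon went the other way, with 58.6%, 44.3% and 77.1% in set 1 and 41.1%, 34.2% and 29.4% in set 2. Directly after the 168 nt exon it stood at 14.4%, 4.79% and 10.8% in set 1 and 4.56%, 3.71% and 4.62% in set 2. That pair of ranges is separated by 0.16 points only, the lowest value of set 1 being that of library 2. The 153 nt form stood at 47.5%, 40.7% and 67.4% in set 1 and at 23.0%, 15.7% and 14.1% in set 2.

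Of the 86 exocyst events with 20 or more counts in the average library, 70 had a mean inclusion over 95%, 11 lay from 5% to 95% and 5 lay under 5%. Over all 93934 single-gene events of that depth, 77.6% lay over 95% and 16.3% from 5% to 95%. The 11 variable events were 5 of EXOC7, 4 of EXOC2, 1 of EXOC1 and 1 of EXOC3. In 6 of the 11, 5 of EXOC7 and 1 of EXOC2, the sets did not overlap, against 21.9% of all 15344 variable events. In 4 of them, 3 of EXOC7 and 1 of EXOC2, the sets did not overlap and their medians differed by at least 10 points, against 10.2%. Events of 1 gene share junction reads, so these are not independent counts.

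**Figure D2:**
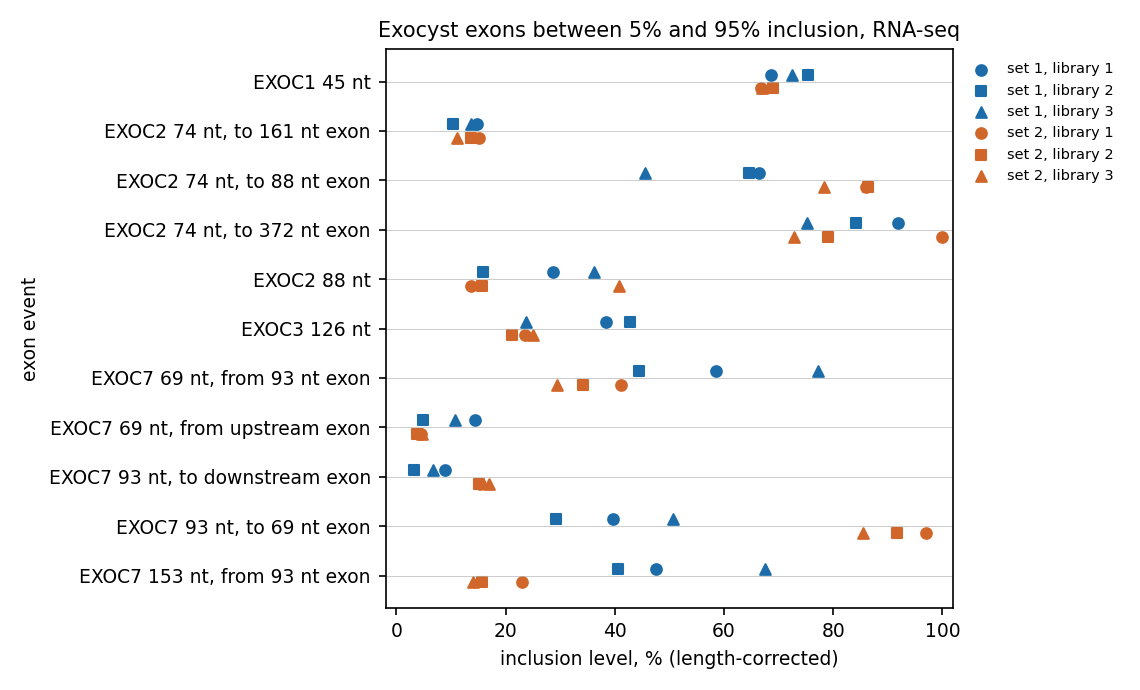
Length-corrected inclusion level (%) of the 11 exocyst events between 5% and 95%, one point per RNA-seq library, circles, squares and triangles for libraries 1 to 3 of each set. The words after the exon length name the neighbouring exon of the event. The sets stand apart most for the EXOC7 93 nt exon measured against the 69 nt exon, at 29.1% to 50.6% and 85.4% to 96.9%.

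EXOC1, the subunit that marks sites of exocytosis in yeast, was the only one measured by both assays. Its 45 nt exon was included in most transcripts by RNA-seq, with 68.6%, 75.4% and 72.4% in set 1 and 66.7%, 68.9% and 67.0% in set 2, on a mean of 616 counts. Set 1 library 1 lies within the range of set 2, so the sets overlap. In RASL-seq the same event had 2 inclusion and 43 skipping counts in PC3E replicate 1, 2 and 49 in replicate 2, and 2 and 60 in replicate 3. GS689 had 6 and 91 in replicate 1, 2 and 77 in replicate 2, and 2 and 63 in replicate 3. Inclusion was therefore 4.44%, 3.92% and 3.23% in PC3E and 6.19%, 2.53% and 3.08% in GS689, and the lines overlap, as they did in all but 23.6% of the 1124 events tested.

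The RASL-seq means were 3.86% ± 0.611 in PC3E and 3.93% ± 1.97 in GS689 (SD, n = 3 per line). The difference did not pass (adjusted p = 0.965 from the limma-moderated quasi-binomial fit, raw p = 0.87, and adjusted p = 0.989 without PC3E replicate 2). In this fit 5.69% of 1124 tested events were called. The change was 0.13 on the log2 odds scale, with a 95% interval of -1.61 to 1.88. Changes of the odds within these bounds, in either direction, are compatible with these counts. Summed over the replicates, 6 of 158 counts in PC3E (3.80%, exact interval 1.41% to 8.08%) and 10 of 241 in GS689 (4.15%, 2.01% to 7.50%) were inclusion counts.

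The assays thus differed by 65.6 percentage points for this exon when counts of all libraries were summed. Over the 1640 events that both assays measured with at least 60 counts, inclusion correlated across events (r = 0.87) and the median absolute gap was 4.65 points. A gap as wide as that of EXOC1 was found in 33 events (2.01%). Among the 861 events from 5% to 95% in RNA-seq the median gap was 13.0 points, and RASL-seq read lower in 471 (54.7%). The reason for the gap at the EXOC1 exon was not tested.

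The RASL-seq total of EXOC1, both forms summed, was higher in GS689. Skipping counts made up 152 of 158 in PC3E and 231 of 241 in GS689, so this total is nearly all skipping product. In CPM (counts per 1000000 of the library) it was 53.2, 66.2 and 69.5 in PC3E and 99.6, 95.6 and 105 in GS689, and no library of one line reached the other. The means were 63.0 ± 8.66 and 100.2 ± 4.89 CPM (SD, n = 3), a fitted 1.59-fold rise (95% interval 1.16 to 2.18). On the log2 scale the change was 0.67 (SE 0.207, adjusted p = 0.032 in limma-voom, higher in 3 of 3 GS689 libraries). Of 1317 genes or unnamed events tested, 29.8% were called, 16.4% higher in GS689 and 13.4% lower, and 46.4% did not overlap between the lines, so such a call is common in this comparison.
The call was lost without PC3E replicate 1 (adjusted p = 0.13) or 3 (0.0703) and without GS689 replicate 1 (0.0844), 2 (0.0616) or 3 (0.0848). It was kept without PC3E replicate 2 (0.0349), and over all alternatives the adjusted p ran from 0.0309 to 0.13. The total rests on 1 alternative exon and is not the level of the gene.

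**Figure D3:**
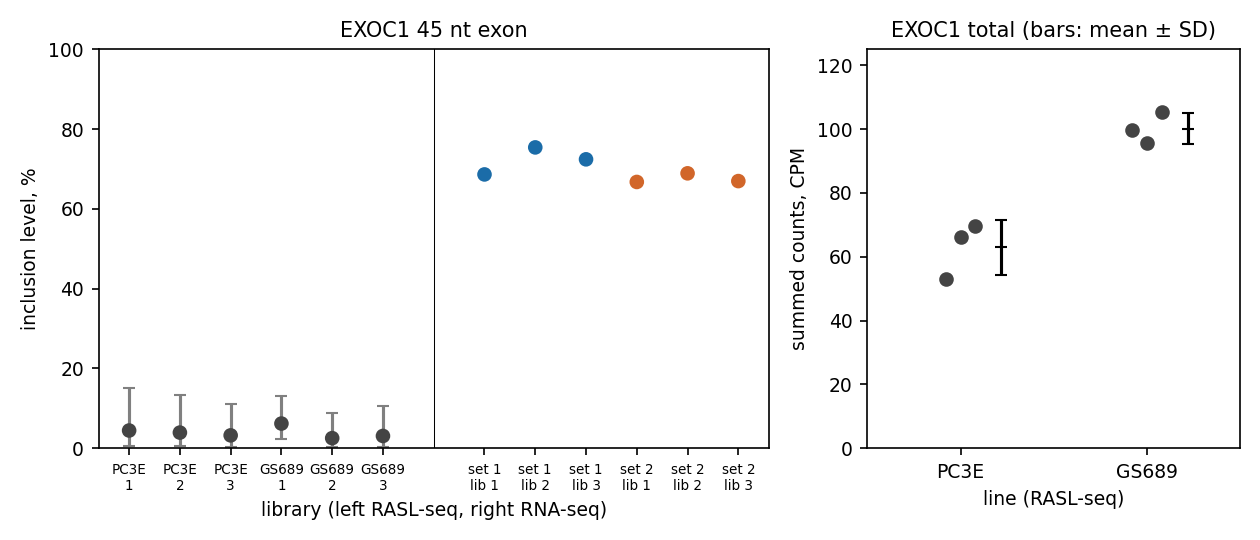
EXOC1 in both assays. Left, inclusion level (%) of the 45 nt exon per library, with exact 95% intervals for RASL-seq; right, RASL-seq counts of both forms in CPM per library, with mean ± SD per line. RASL-seq inclusion lies between 2.53% and 6.19% and RNA-seq inclusion between 66.7% and 75.4%; the GS689 totals all lie above the PC3E totals.

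EXOC2, a subunit that binds Ral, varied at its 5′ end, in non-coding exons of 88 nt (chromosome 6, 657163 to 657250) and 74 nt (689139 to 689212). The 74 nt exon measured against joining of the preceding exon to the 161 nt exon stood at 14.8%, 10.4% and 13.6% in set 1 and 15.1%, 13.6% and 11.01% in set 2, and the ranges overlap. Measured against joining of the preceding exon to the 88 nt exon, it stood at 66.4%, 64.6% and 45.5% in set 1. In set 2 it stood at 86.1%, 86.5% and 78.4%, without overlap but on a mean of 37.0 counts. The skipping junction of this event had 10, 7 and 25 reads in set 1 and 3, 2 and 4 in set 2. Its inclusion counts take in the junction from the preceding exon to the 74 nt exon, whichever exon follows. Events of the 74 nt exon share that junction, so their levels are not shares of transcripts.
Measured against joining of the preceding exon to a 372 nt exon, the 74 nt exon ranged from 72.9% to 100% over the 6 libraries, with overlap. The 88 nt exon after the 74 nt exon ranged from 13.6% to 40.9% on 26.5 counts, also with overlap. Against joining of the preceding exon to the 161 nt exon, the 88 nt exon stood at 6.41%, 3.37% and 10.5% in set 1. In set 2 it stood at 2.66%, 2.97% and 2.99%, and the ranges lie 0.377 points apart. Its mean over the libraries was 4.82%, so it is among the events under 5%. The 10 other EXOC2 events all concern coding exons, at 97.5% or above in each library.

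EXOC3, a core subunit, had 1 variable event. Its 126 nt coding exon (chromosome 5, 458015 to 458140) was measured on rare junctions, on a mean of 33.5 counts. Its inclusion counts were reads that skip the neighbouring 118 nt exon or the neighbouring 101 nt exon. Such reads need not come from the same transcripts, so the computed inclusion is not a share of transcripts. Inclusion was 38.5%, 42.9% and 23.8% in set 1 and 23.5%, 21.2% and 25.0% in set 2, and the ranges overlap by library 3 of set 1. The 118 nt exon itself was included at 97.7% to 99.4%. The skipping junction of the event, which leaves out the 118 nt, 126 nt and 101 nt exons together, had 8 to 39 reads per library.

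EXOC4, EXOC5 and EXOC6 had no variable event. EXOC4, a core subunit, had 2 events, both at 99.4% or above in each library. EXOC5, a core subunit also known from the formation of primary cilia, had 20 events over 20 counts, all with a mean over 95%, the 195 nt exon ranging lowest at 93.6% to 97.2%.
EXOC6 had 12 of 13 events over 95%. Its 69 nt coding exon (chromosome 10, 94679739 to 94679807) was near that limit in its event with most counts, at 100%, 86.8% and 92.0% in set 1 and 97.6%, 96.9% and 96.8% in set 2. The EXOC6 exception was a partly coding 138 nt exon at 0.98% to 7.19%, with overlap. EXOC7 also holds a 39 nt coding exon (chromosome 17, 74082935 to 74082973) that was nearly unused, with 1, 0 and 0 inclusion reads in set 1 and 0, 2 and 5 in set 2, against 627 to 898 skipping reads. Non-coding exons of EXOC1 (134 nt) and EXOC3 (139 nt) stood at 0.0972% to 1.39% and 1.58% to 3.90%. The EXOC1 exon had 7, 7 and 11 inclusion reads in set 1 and 4, 1 and 7 in set 2. The EXOC3 exon had 5, 4 and 7 in set 1 and 12, 6 and 5 in set 2. Their levels lay only 0.138 and 0.153 points apart between the sets. How many of all events under 5% do so was not counted, so no direction is read from them.

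The variable coding exons of the complex shared a property that the choice of genes did not use. All 5 of them, in EXOC1, EXOC3 and EXOC7, have a length that is a multiple of 3, so that inclusion keeps the reading frame. Among exocyst coding exons over 95% this held for 20 of 47 (42.6%). Over all genes it held for 3820 of 7642 variable coding exons (49.99%) and 18586 of 45656 over 95% (40.7%). With 5 exons, 2 of which share a splice site, this is a description only.

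Subunit levels in RNA-seq were compared as junction density, the counts per 1000 positions of effective length and per 1000000 table counts, as the median over the exons of a gene. EXOC7 had the highest density, 81.7, 68.2 and 84.8 in set 1 and 105, 111 and 89.6 in set 2, and no library of it reached another subunit. EXOC5 ranged from 23.7 to 47.9, EXOC1 from 27.8 to 45.3, EXOC4 from 22.6 to 39.0 (2 exons only), EXOC3 from 19.8 to 36.1 and EXOC2 from 17.1 to 25.0, and each of these overlaps its neighbour in the order. EXOC6 was lowest, at 6.33 to 9.08, below every library of EXOC2. Its paralog EXOC6B ranged from 7.37 to 13.3 and overlaps EXOC6.

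**Figure D4:**
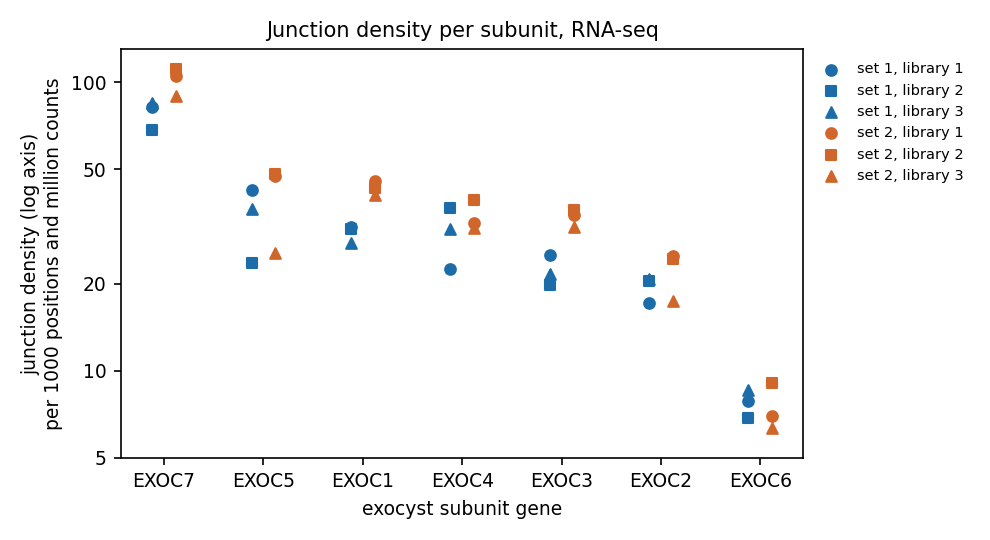
Junction density of the 7 exocyst subunit genes with events (log axis, counts per 1000 positions and 1000000 table counts, median over exons), one point per RNA-seq library. EXOC7 lies above all others at 68.2 to 111 and EXOC6 below all others at 6.33 to 9.08.

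As summed counts in CPM of the table, EXOC1 stood at 51.7, 49.6 and 46.8 in set 1 and 78.5, 72.9 and 67.5 in set 2. EXOC3 stood at 47.8, 36.7 and 40.3 in set 1 and 62.6, 61.0 and 54.1 in set 2. EXOC7 stood at 206, 164 and 209 in set 1 and 256, 266 and 217 in set 2. In these 3 of 7 genes each library of set 2 was above each of set 1, where 29.7% of 11611 genes with at least 20 counts did the same. In 0 of the 7 was set 1 above set 2, against 20.3% of all genes.
The ratio of the set medians was 1.47, 1.51 and 1.25 for EXOC1, EXOC3 and EXOC7, while over all genes its median was 1.08, and 1.02 after scaling by trimmed means. With that scaling the 3 ratios were 1.32, 1.42 and 1.16. The ranges of EXOC2 (38.1 to 54.1), EXOC4 (9.14 to 15.7), EXOC5 (72.6 to 132) and EXOC6 (10.6 to 16.5) overlap between the sets. For EXOC3 the ranges overlapped with skipping counts alone. Without library 2 of set 1, EXOC4 was also above in set 2, by 0.0297 CPM. EXOC5 was low in library 2 of set 1 (72.6) and library 3 of set 2 (78.7) and stood at 112 to 132 in the other 4 libraries. In bulk RNA, more RNA per cell and more cells that hold it cannot be told apart.

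Partners of the exocyst were read from 5 lists of 99 genes: relatives of the subunits, GTPases and their regulators, SNAREs and proteins that bind them, cargo, polarity and motor partners, and the related tethers of the Golgi and endosomes. The RASL-seq table tested 10 events in 9 of these genes, and 1 was called, with lower inclusion, against 5.69% of all events; 4 of the 10 had an unadjusted p under 0.05, against 19.7%. The median absolute difference was 3.65 points over the 10 events and 2.14 points over all tested events. The GTPase list had 4 events tested and 3 at an unadjusted p under 0.05. Among them, a 57 nt coding exon of RAC1 went from 6.10% in PC3E to 3.01% in GS689 (adjusted p = 0.000455 in the limma-moderated model). It was not called because the difference was under 5 points. In the same list RALGPS2, an exchange factor for Ral, fell in the inclusion of a 78 nt coding exon in GS689. The event had a mean of 54.8 counts per library, and the GS689 libraries stood at 58.5%, 76.5% and 80.0%. Most counts came from PC3E: the gene totals were 77.96, 131 and 99.8 CPM there and 42.1, 20.6 and 24.3 CPM in GS689. The GS689 levels thus rest on few reads. In PC3E inclusion stood at 93.9%, 99.0% and 100%, so the filter on the rarer form was met mostly through GS689. Mean inclusion went from 97.6% ± 3.25 in PC3E to 71.7% ± 11.5 in GS689 (SD, n = 3, adjusted p = 0.00517 in the limma-moderated model). That call was kept without PC3E replicate 2 (0.00635). It was lost without GS689 replicate 1 (0.146) and with limma on the log2 ratio at a pseudocount of 0.5 (0.0784), and over all alternatives the adjusted p ran from 0.000324 to 0.146. The SNARE list had 0 of 4 events called and 0 with an unadjusted p under 0.05. The cargo list had 0 of 2 called and 1 with an unadjusted p under 0.05.

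Of 12 partner genes with a testable RASL-seq total, 2 rose and 4 fell, where 16.4% and 13.4% of all did. Like that of EXOC1, these totals rest on counts at alternative exons and are not the levels of the genes. Of the 4 in the GTPase list, 1 rose and 2 fell. RAC1, a GTPase of lamellipodia, rose by 0.66 on the log2 scale (SE 0.102, adjusted p = 0.000686 in limma-voom), from 7110 to 11250 CPM. RALGPS2 fell by 1.80 (SE 0.332, adjusted p = 0.00215), from 103 to 28.99 CPM. TRIP10, an F-BAR protein that binds the exocytic GTPase TC10, fell by 1.05 (SE 0.183, adjusted p = 0.00154), from 1053 to 507 CPM.
Of the 5 SNARE list genes, 1 rose and 1 fell. STXBP5 (tomosyn), which holds back SNARE assembly, fell by 1.10 (SE 0.375, adjusted p = 0.0473), although the lines overlap. It was a call kept only without PC3E replicate 2 among the 6 libraries left out in turn, with adjusted p from 0.00261 to 0.201 over all alternatives. TNFAIP2, a relative of EXOC3, fell by 1.86 (SE 0.379, adjusted p = 0.00389 in limma-voom), and it was the 1 tested gene of its list. It stood at 31.9, 33.8 and 24.7 CPM in PC3E and 7.19, 9.68 and 6.48 CPM in GS689. TNFAIP2 met the count filter through PC3E alone and left the fit whenever a PC3E library was left out. A gene that low in GS689 could enter the test only by being higher in PC3E. The 1 tested cargo gene and the 1 tested related tether did not pass in limma-voom, nor at an unadjusted p under 0.05. The epithelial and mesenchymal markers given above moved between the lines as well, and their part in these differences was not tested.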

How the data were processed

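Per the file headers, the authors deposited a RASL-seq table with a pair of counts per event and library, and an RNA-seq table that lists effective lengths and counts of both forms for sets 1 and 2. Per the labels' protocols, RNA came from Trizol lysates and the library kit was TruSeq Stranded Total RNA, while polyA RNA is given as the molecule. STAR 2.5.2a, kallisto 0.43.0 and hg19 stand in the submitters' processing notes, with no role given. The sources used here do not name the counting tool or the RASL-seq probes.

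Empty RASL-seq cells were read as 0. The first count of a pair was taken as inclusion, since its share correlated with RNA-seq inclusion (r = 0.87). RNA-seq inclusion was computed from length-corrected counts. Events matched 1 GENCODE 29 gene in 1934 of 2023 and 109246 of 114816 cases; that annotation is on another build, and no coordinates were converted. The number of per-sample columns left unused was 0.

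RASL-seq inclusion was tested over the whole table by quasi-binomial logistic regression (F test), with dispersions moderated with limma 3.58.1 in R 4.3.3 and held at 1 or above. Events needed a mean of 10 counts per library, 1 in each and 10 of the rarer form. Calls needed an adjusted p (Benjamini-Hochberg) under 0.05 and a difference of at least 5 points. Gene totals went through limma-voom (about 10 counts in 3 libraries, 15 in all). Both were checked on simulated data. RNA-seq columns could not be tied to lines, so their planned tests were not run. Pseudogenes of EXOC5 and EXOC7 share exon sequence, and how the counting treated such reads is not stated. The members and lists, and the rule for named genes (all members, variable events described in full, partners only if they passed), were chosen with earlier results of these data known. Some genes of these lists are counted but not reported by name here.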

Additional observations from a re-analysis of the deposited data

How the results depend on the processing

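The EXOC1 exon did not pass under any of 12 alternatives (adjusted p 0.509 to 0.998), and its difference, 0.0674 points, changed sign without PC3E replicate 3 (-0.252) and GS689 replicate 1 (-1.06); leaving out each library gave -1.06 to 0.767. The EXOC1 total kept its direction under 12 and its call under 7, with log2 changes of 0.54 to 0.73 when each library was left out. Of all events 64 were called, 28 with limma on the log2 ratio at a pseudocount of 0.5, and 44 to 81 with each library left out. Of all totals 393 were called, 242 with skipping counts alone, and 251 to 441 with each library left out. With the replicate number as a block, 88 events and 465 totals were called, and the EXOC1 values were 0.0674 points (adjusted p = 0.994) and 0.67 (0.0309). Same-numbered libraries correlated at 0.0108, -0.0388 and 0.0202 for inclusion and 0.269, 0.172 and -0.0137 for totals, and 1 and 4 of 6 correlated best with their own number, so the numbers were not taken as pairs. The alternative without RNA-seq set 1 library 2 was chosen after seeing the data; it left 6 exocyst events without overlap, as before. With a minimum of 100 counts, 7 exocyst events were variable instead of 11. Without length correction all 11 variable exocyst events read higher, 5 of them by more than the SD over libraries. The EXOC1 exon had at most 6 inclusion counts per library in RASL-seq, where both forms together had 45 to 97.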

Other observations

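Partner genes in RNA-seq were counted by set, with no test. Of 32 GTPase list genes with at least 20 counts per library, 17 had a higher total in each library of set 2 than in each of set 1, and 5 the reverse. The median ratio of set 2 to set 1 over this list was 1.30. For the SNARE list the counts were 11 and 1 of 17, with a median ratio of 1.496. For the cargo, polarity and motor list they were 10 and 5 of 21 (1.18), and for the related tethers 4 and 1 of 16 (1.12). The relatives of the subunits had 0 and 1 of 2, with a median ratio of 0.710. Over all genes 29.7% and 20.3% did so, with a median ratio of 1.08.

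The exons whose inclusion over the 6 RNA-seq libraries lay nearest that of the 93 nt EXOC7 exon, the variable EXOC7 event with most counts, were sought among 75966 events with at least 100 counts. By root mean square difference they were a 69 nt exon of SEC24C (1.36 points), a 273 nt exon of FN1 (1.69), a 52 nt exon of WDR20 (1.85), a 264 nt exon of CHD1 (1.87) and a 137 nt exon of NPRL3 (1.95). The SEC24C exon stood at 9.78%, 5.77% and 7.99% in set 1 and at 16.6%, 15.02% and 16.6% in set 2. All share the same libraries, and the likeness is a description.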
